A study of Mus musculus with 8 samples.

Results

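Isolated regions of acetylated chromatin were chosen by the positions of H3K27ac peaks. Peaks of 8 libraries were merged, and a merged region was kept if at least 2 libraries held it and if the nearest other region on the same chromosome lay more than 100000 bp away on both sides. There were 1263 of them among 33920 merged regions, or 4.49% of the 28146 that 2 or more libraries held. Peak presence in the same libraries thus chose the regions, and their spacing and the number of libraries that hold them are given as description. A further 285 regions lay as far from any other but had a peak in 1 library alone and were left out by the definition. At 12 of the 1263 regions there was no neighbour on one side, and the distance was judged on the other side. Of the 1263, 5 lay on sequence that is not placed on a chromosome, where distances have little meaning.

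The regions were mapped by chromatin immunoprecipitation and sequencing of H3K27ac in 266-6 cells, a line established from mouse pancreatic acinar cells, with 2 libraries in each of 4 groups. The knockdown with EGF group received siRNA against Arid1a at 25 nM for 48 h and EGF at 40 ng/ml for 8 h. The knockdown group received the same siRNA and a vehicle of 0.1% BSA, the EGF group a non-targeting siRNA and EGF, and the control group the non-targeting siRNA and vehicle. All 4 groups were transfected and were starved of serum overnight before EGF or vehicle. Knockdown here names the siRNA given, since Arid1a itself was not measured in these files and the labels write its target as ARID1A. Nothing in the labels tells if duplicates came from separate cultures, and the p-values below therefore reflect a spread that may be technical. The labelled cell type could not be checked against markers, because no annotation of build mm9, the build of the peak lists, was used here. For the same reason no region is tied to a gene, exon, intron or promoter, and no sequence is shown.

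Acetylation of histone H3 at lysine 27 marks active promoters and active enhancers. Regions far from any other peak often stand in gene-poor stretches, where remote enhancers and the promoters of lone genes are found. ARID1A belongs to the SWI/SNF complex, which moves nucleosomes and is known for keeping enhancers open. EGF signals through its receptor to the ERK pathway, and in acinar cells such signalling is known for driving a change towards duct-like cells.

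The lists of the knockdown with EGF libraries held 22030 and 23256 peaks, those of the knockdown libraries 26844 and 27558, those of the EGF libraries 22361 and 23080, and those of the control libraries 22167 and 28281. In list length the 2 control libraries differed more from each other than the libraries of any other group. Read depth is unknown for all of them, and a region without a peak in a library has a covered length of 0 bp there, which does not mean that the mark was absent.

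The isolated regions were narrower than the others, and the median rank of their peaks was close to that of the others. Their median width was 1394 bp (25th to 75th percentile 948 to 1928 bp), and that of the other 26883 regions was 1674 bp (1102 to 2599 bp). Only 10 isolated regions, 0.792%, were wider than 5000 bp, against 6.17% of the other regions. In each of the 8 libraries the median peak at isolated regions, from 957 to 1143 bp, was narrower than the median peak elsewhere, from 1215 to 1390 bp. The deposited score ranks each peak by its q-value, and the median peak at isolated regions stood at percentile 46.7 to 52.1 of its own list over the 8 libraries. The median peak elsewhere stood at percentile 50.3 to 53.5. The authors' fold enrichment over background was likewise close, with medians of 4.63 to 5.01 at isolated regions and 4.60 to 4.94 elsewhere. Between 3.81% and 4.28% of the peaks of each list lay in isolated regions.

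In base pairs the borders of these regions varied less between libraries than those of the others. In the 621 isolated regions with a single peak in each of the 8 libraries, the standard deviation of the start over libraries had a median of 130 bp and that of the midpoint 95.3 bp. The medians over 13882 other regions of that kind were 159 bp and 113 bp. Relative to width the spread was alike, with a median coefficient of variation of 18.2% at isolated regions and 18.8% elsewhere. A region was split into several peaks by at least 1 library in 44 cases, 3.48% of the isolated regions, against 8.96% of the others.

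Isolated regions took very different shares of the chromosomes. On the X chromosome 103 of 567 regions, 18.2%, were isolated, on chromosome 13 8.39% and on chromosome 3 7.25%. On chromosome 17 the share was 1.44%, on chromosome 11 1.84% and on chromosome 19 2.03%. The number of regions per megabase was 3.55 on the X chromosome and 19.2 on chromosome 11, and the definition itself makes isolated regions more frequent where regions are sparse. The number of isolated regions per megabase varied less, from 0.184 on chromosome 17 to 0.762 on chromosome 13, with 0.644 on the X chromosome.

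Presence in all libraries was less frequent at isolated regions, and the strongest of them had a peak near the top of every list. Of the 1263 regions, 648 (51.3%) had a peak in all 8 libraries, against 59.4% of the other regions, and 138 (10.9%) had one in 2 libraries, against 9.50%. The order of the shares differed with width. Among regions of up to 1000 bp, 18.1% of the isolated and 12.3% of the others had a peak in all 8 libraries, and among those over 2000 and up to 3000 bp the shares were 74.8% and 83.1%. The region whose lowest rank was highest lay on chromosome 18 from 7868164 to 7870857, 222667 bp from the next one, and stood at percentile 99.5 to 99.8 of the 8 lists. Its covered length, the number of bases under peaks, was 1904 and 2080 bp in knockdown with EGF, 2580 and 2167 bp in knockdown, 1786 and 2091 bp in EGF, and 1945 and 2282 bp in control libraries. Both knockdown libraries lay above the 4 EGF-treated ones and overlapped with the control libraries. A region on chromosome 17 from 48546781 to 48550775 stood at percentile 99.4 or above in every list, with 3265 and 3875 bp in knockdown with EGF, 3759 and 3541 bp in knockdown, 3582 and 3681 bp in EGF, and 3469 and 3523 bp in control libraries. All 8 values lay close together, and the difference between EGF and vehicle averaged 0.01 ± 0.07 (SE) on the log2 scale used below. On chromosome 11, regions from 26109580 to 26111472 and from 26285884 to 26287878 were neighbours of each other, 174411 bp apart, and both stood at percentile 97.8 or above in every list.

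**Figure D1:**
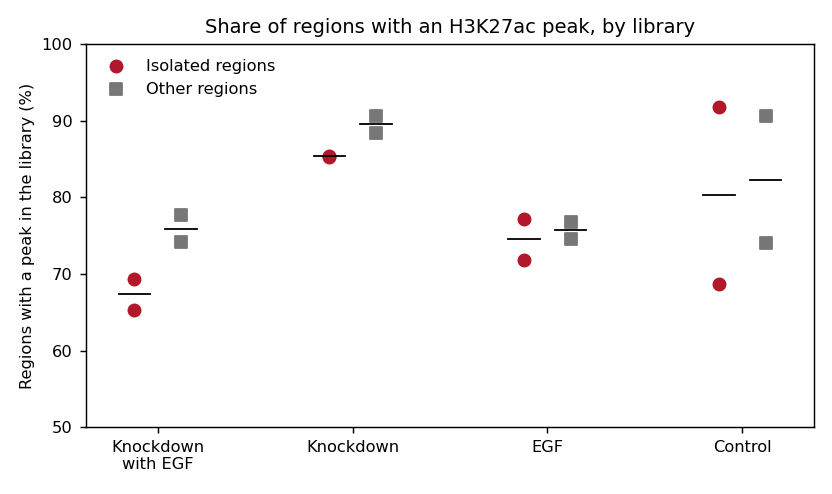
Percentage of the 1263 isolated regions (circles) and of the 26883 other regions (squares) with a peak in each library, with 2 libraries per group and a line at their mean. The knockdown with EGF libraries hold 65.3% and 69.4% of the isolated regions, the lowest pair, the circles of the knockdown libraries overlap at 85.3% and 85.4%, and the control libraries lie far apart at 68.6% and 91.8%.

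The number of isolated regions with a peak differed between libraries. It was 825 and 876 in knockdown with EGF, 1077 and 1079 in knockdown, 907 and 975 in EGF, and 867 and 1160 in control libraries. As shares of the 1263 these were 65.3% and 69.4%, 85.3% and 85.4%, 71.8% and 77.2%, and 68.6% and 91.8%, in the same order of groups. The same shares of the other regions were 74.2% and 77.7% in knockdown with EGF, 88.4% and 90.6% in knockdown, 74.6% and 76.8% in EGF, and 74.0% and 90.5% in control libraries. Knockdown with EGF libraries were the pair in which isolated regions lagged the others most, and the first control library, which has a short list, lay among the EGF-treated libraries. Over both siRNAs the mean was 896 ± 62.7 with EGF and 1046 ± 125 without (SD, n = 4 each), and the libraries overlapped. With knockdown it was 964 ± 133 and with the control siRNA 977 ± 130 (SD, n = 4 each).

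EGF was then set against vehicle in cells with the control siRNA. The measure was log2(covered bp + 200), compared with limma over all 28146 regions, and the added 200 bp understates differences at short peaks. Of the isolated regions, 15 rose and 24 fell at a limma adjusted p under 0.05. Over all regions tested 1.05% rose and 2.9% fell, and both directions together made 3.09% of the isolated and 3.95% of all regions. The shares with an unadjusted p under 0.05 were 13.9% and 18.3%. The median log2 difference was -0.09 at isolated regions and -0.14 over all regions. The 15 that rose changed by 0.75 to 3.30 and the 24 that fell by 0.61 to 3.08 on the log2 scale. Some called regions were held by fewer than 2 libraries outside the higher group, so that they entered the test only through the group where they are high and had to differ. This was so for 3 of the 15 and 1 of the 24, and such regions are described below with no p-value. As shares these were 20% and 4.17%, against 31.8% and 9.69% of all regions called higher and lower. By peak presence 45 isolated regions (3.56%) gained a peak, which means that both EGF libraries and no control library held it, where 2.41% of all regions did, and 63 (4.99%) showed the reverse, where 5.13% did.

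In knockdown cells most of the called differences with EGF were losses. There 5 isolated regions rose and 62 fell at a limma adjusted p under 0.05, while 0.622% of all regions rose and 6% fell. Together these were 5.30% of the isolated and 6.62% of all regions, and the shares with an unadjusted p under 0.05 were 23.0% and 24.9%. Only through the higher group had 0 of the 5 and 10 of the 62 (16.1%) entered the test, against 16% and 24.2% of all regions called higher and lower. The median log2 difference was -0.32 at isolated regions and over all regions alike. By peak presence 13 regions (1.03%) were gained, where the share over all regions was 1.2%, and 166 (13.1%) were lost, where it was 10.1%. The difference between the EGF effects of the 2 siRNAs was tested as an interaction in limma. It passed for 0 isolated regions and 0 regions in all, the smallest adjusted p among isolated regions being 0.153. At an unadjusted p under 0.05 there were 117 isolated regions, 9.26%, and 8.97% of all regions. The interaction count changed with the libraries and settings. Without the second control library 73 isolated regions passed (5.78%, against 4.79% of all regions), and leaving out the first or the second knockdown library gave 24 (1.90%, against 2.71%) and 25 (1.98%, against 2.74%). Where a library had to cover 50% of a region to count, 84 passed (7.30%, against 8.08%), and with peaks under the lower quartile of score dropped 18 did (1.92%, against 2.51%).

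The mean EGF effect over both siRNAs, which rests on 4 libraries against 4, gave 22 isolated regions higher and 108 lower by limma. These were 10.3% of the isolated regions, against 13% of all regions, of which 1.79% were higher and 11.2% lower. With an unadjusted p under 0.05 the shares were 28.9% of the isolated and 34% of all regions. The SD within groups left by the fit had a median of 0.38 at isolated and 0.31 at other regions. Its part in the shares called was not tested. Of the isolated regions called, 12 of the 22 and 58 of the 108 had entered the test only through the side where they are high. As shares these were 54.5% and 53.7%, against 58.8% and 37.2% of all regions called higher and lower. The lower calls at isolated regions thus rested on this route more often than those over all regions.

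The split between gains and losses depended on scaling. The median log2 difference of the mean EGF effect was -0.24 at isolated and -0.25 over all regions, and after quantile normalization 0.10 and 0.04. With that scaling 70 isolated regions were higher and 50 lower in the mean EGF effect. With knockdown 8 were higher and 20 lower, and with the control siRNA 30 were higher and 13 lower. As shares these were 9.5%, 2.22% and 3.4% of the isolated regions, against 10.9%, 3.2% and 4.2% of all regions. On lists of equal length 51 were higher and 73 lower in the mean effect, 24 higher and 39 lower with knockdown, and 42 higher and 31 lower with the control siRNA. The shares were 11.3%, 5.72% and 6.62% of the isolated regions tested, against 13.8%, 6.62% and 6.14% of all regions. Single libraries moved the counts as well, and the shares of isolated and of all regions past the threshold moved in the same direction. Without the first control library the counts rose for the mean EGF effect, for EGF with knockdown and for EGF with the control siRNA. The median log2 differences were then -0.36, -0.32 and -0.30 at isolated regions, against -0.34, -0.32 and -0.30 over all regions. Without the second control library the count for EGF with knockdown rose as well, and EGF with the control siRNA turned to more gains than losses. The medians for the mean EGF effect were then -0.14 at isolated and -0.17 over all regions. For EGF with the control siRNA they were 0.02 and 0. Without the first or the second EGF library, EGF with the control siRNA gave 0 (140 and 166 at an unadjusted p under 0.05) and the mean effect 69 and 84. Without the first or the second library of knockdown with EGF, EGF with knockdown gave 0 and 4 (204 and 216 at an unadjusted p under 0.05), and the mean effect 60 and 74. EGF with the control siRNA then turned to 11 higher and 5 lower without the first and 10 higher and 5 lower without the second.

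Among isolated regions higher with EGF, the 2 with the largest mean differences had no peak in any of the 4 vehicle libraries. A region on chromosome 6 from 7086298 to 7087838, 179499 bp from its nearest neighbour, was covered over 1326 and 1541 bp in knockdown with EGF libraries, against 0 and 0 bp in knockdown libraries, and over 1221 and 1478 bp in EGF libraries, against 0 and 0 bp in control libraries. All 4 EGF-treated libraries had the peak and no vehicle library did. The mean EGF difference was 2.99 ± 0.22 (SE).

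A region on chromosome 15 from 63025174 to 63026428 showed the same pattern. It had 980 and 1109 bp in knockdown with EGF against 0 and 0 bp in knockdown libraries, and 1088 and 1090 bp in EGF against 0 and 0 bp in control libraries. Its mean difference was 2.66 ± 0.22 (SE). The next, on chromosome 1 from 53987692 to 53988854, had 1107 and 855 bp in knockdown with EGF against 0 and 229 bp in knockdown, and 1029 and 1132 bp in EGF against 0 and 0 bp in control libraries, a difference of 2.34 ± 0.31 (SE). Its peak was thus present, and short, in 1 vehicle library. On chromosome 13, a region from 43779638 to 43780741 had 894 and 1089 bp in knockdown with EGF against 0 and 0 bp in knockdown, and 558 and 706 bp in EGF against 0 and 0 bp in control libraries, a difference of 2.31 ± 0.23 (SE). In these 4 regions the EGF-treated and the vehicle libraries did not overlap, and all 4 entered the test only through the EGF-treated libraries. Their peaks, where present, stood at percentile 35.9 to 54.5 of the lists on chromosome 6 and 14.4 to 61.3 on chromosome 15. They stood at 6.02 to 25.2 on chromosome 1 and 7.08 to 29.0 on chromosome 13. All EGF-treated libraries lay above all vehicle libraries at 27 isolated regions (2.14%), against 2.33% of all regions. Gains with a peak in all 4 EGF-treated libraries and no vehicle library, numbered 6 (0.475%), close to the 0.487% of all regions.

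A region with a peak in every library can widen or narrow. On chromosome 10 a region from 113991476 to 113994241, chosen after its values were seen, had a peak in all 8 libraries, with 1981 and 1530 bp in knockdown with EGF against 1151 and 943 bp in knockdown, and 1973 and 2523 bp in EGF against 789 and 662 bp in control libraries. It widened by 1.02 ± 0.14 (SE, limma adjusted p = 0.0107) and the treated and vehicle libraries did not overlap. A further gain was called with 1 siRNA. A region on chromosome 1 from 126215732 to 126218969 had 1293 and 2783 bp in knockdown with EGF against 1283 and 797 bp in knockdown, and 1433 and 2172 bp in EGF against 0 and 0 bp in control libraries. It rose by 3.30 ± 0.41 (SE, limma adjusted p = 0.0224) with EGF under the control siRNA, and its difference with EGF under knockdown was 0.80 ± 0.41 (SE, limma adjusted p = 0.297). The difference between these 2 effects did not pass the limma interaction test (adjusted p = 0.218).

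Peaks were also lost with EGF. By peak presence 26 isolated regions (2.06%) had a peak in all 4 vehicle libraries and none of the EGF-treated ones, where 1.94% of all regions did. One on chromosome 5 from 132549532 to 132551835 had 0 and 0 bp in knockdown with EGF against 1764 and 1635 bp in knockdown, and 0 and 0 bp in EGF against 615 and 1685 bp in control libraries. Its mean EGF difference was -2.94 ± 0.32 (SE). One on chromosome 10 from 105010569 to 105012733 had 0 and 0 bp in knockdown with EGF against 2075 and 961 bp in knockdown, and 0 and 0 bp in EGF against 982 and 1175 bp in control libraries, a difference of -2.85 ± 0.29 (SE). Both entered the test only through the vehicle libraries, where their peaks stood at percentile 23.9 to 47.5 on chromosome 5 and 25.1 to 44.8 on chromosome 10.

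A few losses left a remnant in 1 treated library. The region on chromosome 10 from 103154892 to 103156792 kept 0 and 0 bp in knockdown with EGF against 1498 and 1843 bp in knockdown, and 273 and 0 bp in EGF against 1880 and 1897 bp in control libraries. Its mean difference was -2.99 ± 0.32 (SE), the most negative among the isolated regions past the threshold. On chromosome 8, from 118926517 to 118928406, coverage was 0 and 267 bp in knockdown with EGF against 1606 and 1719 bp in knockdown, and 0 and 0 bp in EGF against 1162 and 1837 bp in control libraries. The difference was -2.83 ± 0.34 (SE), and both regions depended on the vehicle libraries to enter the test. Their peaks, where present, stood at percentile 2.22 to 41.0 on chromosome 10 and 11.6 to 37.0 on chromosome 8. Of the 648 isolated regions with a peak in all 8 libraries, 5 rose and 30 fell, 5.40%, against 10.0% of all regions with a peak in all 8. Among these, one on chromosome 18 from 48623045 to 48626562, chosen after its values were seen, had 1398 and 897 bp in knockdown with EGF against 3418 and 2846 bp in knockdown, and 728 and 890 bp in EGF against 2515 and 2941 bp in control libraries. It fell by 1.43 ± 0.15 (SE, limma adjusted p = 0.00658), with no overlap between treated and vehicle libraries. The widest isolated region, 7724 bp on chromosome 17 from 10509753 to 10517476, narrowed as well, to 3991 and 5295 bp in knockdown with EGF, against 6682 and 7049 bp in knockdown, and to 3543 and 4616 bp in EGF, against 6459 and 7084 bp in control libraries (log2 difference -0.64 ± 0.12 SE, limma adjusted p = 0.0255).

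**Figure D2:**
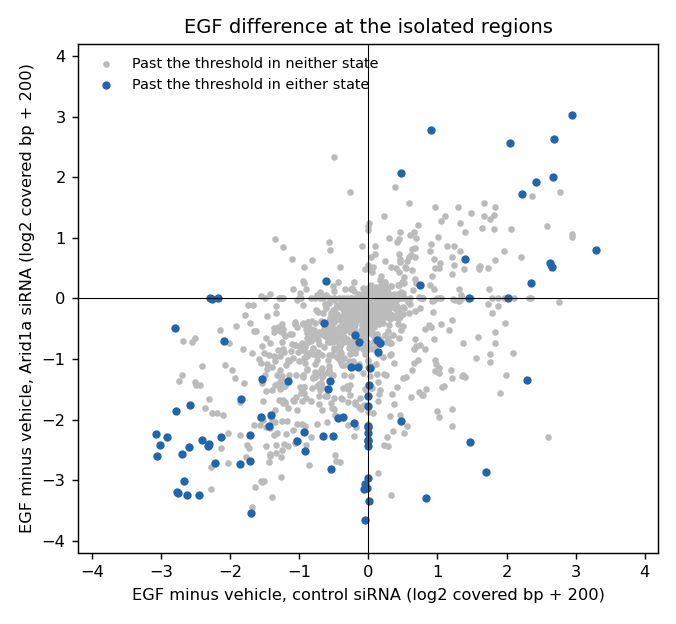
Difference of log2(covered bp + 200) between EGF and vehicle at each of the 1263 isolated regions, with the control siRNA on the horizontal and with Arid1a siRNA on the vertical axis; blue points passed a limma adjusted p of 0.05 in at least 1 of them. Most blue points lie below the horizontal line at 0, and under knockdown 5 rose and 62 fell.

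The EGF differences of the 2 siRNAs, which share no library, ran in the same direction at 847 of the 1263 regions (67.1%), against 69.7% of the other regions. Their Pearson correlation over isolated regions was 0.51 and Spearman's rho 0.50, a description across regions, which are not independent replicates, with libraries in common for all points. Over the other regions the values were 0.55 and 0.54. Of the 5 regions that rose with EGF under knockdown and the 15 that did so under the control siRNA, 3 rose in both, which was 60% of the knockdown list and 20% of the control list. Of the 62 that fell under knockdown and the 24 that fell under the control siRNA, 13 fell in both, 21.0% of the knockdown list and 54.2% of the control list. No isolated region was called in opposite directions. The matching overlaps over all regions were not counted, so these counts do not set isolated regions apart.

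**Figure D3:**
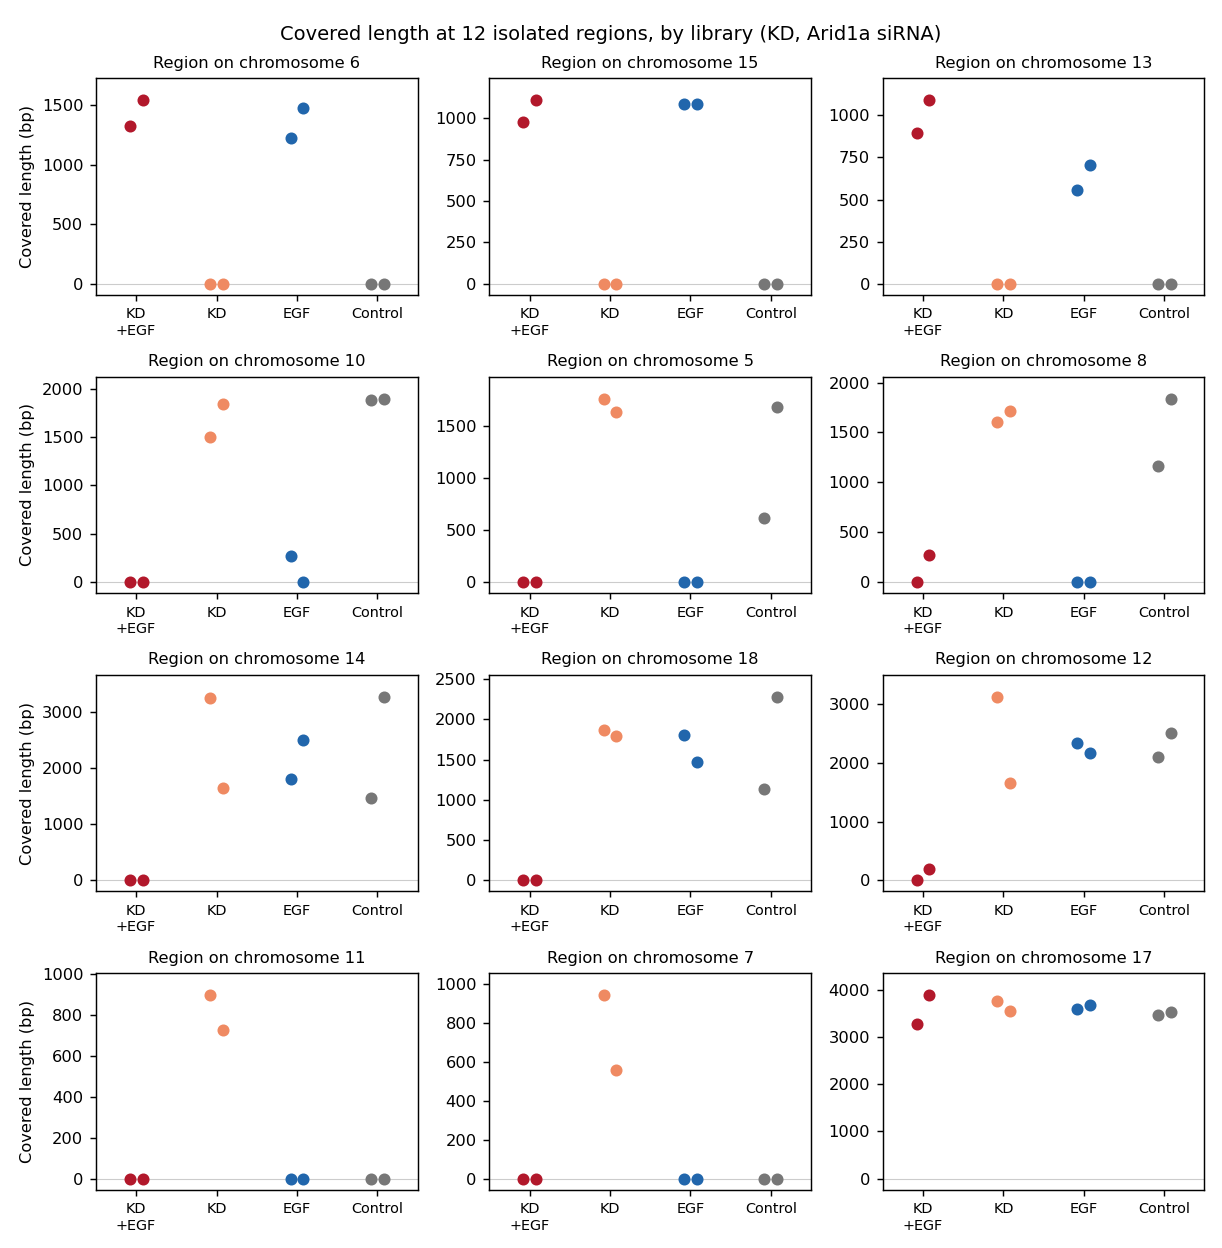
Covered length in each library at 12 isolated regions, with 2 points per group (KD, Arid1a siRNA) and a panel for each region. The top row is higher and the second row lower with EGF, the third row lacks cover in knockdown with EGF alone apart from 200 bp in 1 library on chromosome 12, and the last row shows 2 regions covered in knockdown alone and 1, on chromosome 17, that is even in all 8 libraries.

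Knockdown was set against the control siRNA, first without EGF. By limma 9 isolated regions were higher and 2 lower, while 1.09% of all regions were higher and 0.274% lower. Together these were 0.871% of the isolated and 1.37% of all regions, and the shares with an unadjusted p under 0.05 were 8.16% and 12.7%. The median log2 difference was 0.13 at isolated regions and 0.18 over all regions. Of the regions called, 7 of the 9 (77.8%) and 1 of the 2 (50%) had entered the test only through the higher group, against 68.8% and 63.6% of all called. The region with the largest difference, on chromosome 18 from 21903744 to 21905612, had 1590 and 1176 bp in knockdown, against 0 and 0 bp in control libraries, and 0 and 0 bp in the libraries of both EGF-treated groups. The difference was 2.97 ± 0.31 (SE). On chromosome 11, a region from 84190369 to 84191263 had 895 and 728 bp in knockdown against 0 and 0 bp in control libraries and no peak with EGF (2.33 ± 0.29 SE). On chromosome 7, one from 97851813 to 97852872 had 942 and 557 bp against 0 and 0 bp, and also no peak with EGF (2.22 ± 0.33 SE). These 3 regions are isolated regions only because both knockdown libraries held them, and they stood at percentile 2.25 to 20.3 of those lists.

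The wide region on chromosome 2 from 132813362 to 132819616 differed from these in having a peak everywhere. It was covered over 5639 and 5998 bp in knockdown against 2911 and 2780 bp in control libraries, a rise of 0.98 ± 0.15 (SE, limma adjusted p = 0.0476), and over 3991 and 2924 bp in knockdown with EGF against 3450 and 2991 bp in EGF libraries. The 2 regions lower with knockdown were on chromosome 7 from 148956740 to 148957760, with 0 and 0 bp against 586 and 1021 bp in control libraries, and on chromosome 6 from 87431754 to 87432579, with 0 and 0 bp against 675 and 826 bp. The second also had 334 and 218 bp in EGF libraries and no peak in knockdown with EGF, and its limma adjusted p was 0.0419. The first was held by the control libraries alone. By peak presence 33 isolated regions (2.61%) were gained with knockdown and 16 (1.27%) lost, where 3.67% and 0.938% of all regions were. The limma count was 0 after quantile normalization, with no filter on regions, without either EGF library and without either library of knockdown with EGF (94 to 102 at an unadjusted p under 0.05). It was 1 with a pseudocount of 1000 bp (0.0792%, against 0.430% of all regions). It rose without the second control library, where the median log2 difference was 0.33 at isolated and 0.35 over all regions. Without the first the calls turned to more losses than gains, with medians of -0.04 and 0.01. On lists of equal length the count was 12 higher and 12 lower (2.18% of the isolated regions tested, against 2.55% of all regions). With each library left out, the share over all regions moved in the same direction as the count. Leaving out the first or the second knockdown library raised the count, with medians of 0.12 and 0.15 at isolated and 0.21 and 0.15 over all regions.

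Under EGF, peaks were lost with knockdown at a larger share of isolated regions than of all regions. Of the 1263, 77 (6.10%) were held by both EGF libraries and by no library of knockdown with EGF, where 2.82% of all regions did, and 16 (1.27%) showed the reverse, where 2.43% did. The list lengths of the compared libraries were alike, 22030 and 23256 peaks with knockdown and 22361 and 23080 without. Read depth, which list length does not give, is unknown, and its part in this was not tested. The share lost by class of distance to the nearest other region was 2.25% at 5 kb or less, 2.74% over 5 and up to 25 kb, 3.37% over 25 and up to 100 kb and 6.10% over 100 kb. Within the last class, 24 of 430 regions (5.58%) were lost at more than 200 kb and 12 of 113 (10.6%) at more than 500 kb, so the share did not grow evenly. The share gained was 2.93%, 2.29%, 1.97% and 1.27% in the 4 classes, and 3 of 113 regions (2.65%) at more than 500 kb. These are descriptions of regions of the same 4 libraries, and no test of the trend was made.

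Isolated regions were narrower, so the shares were also taken by width. Of regions up to 1000 bp, 6.94% of the isolated and 4.41% of the others were lost with knockdown under EGF. Of those over 1000 and up to 2000 bp the shares were 6.45% and 3.53%, and of those wider than 2000 bp 4.24% (12 of 283) and 0.840% (88 of 10474). The median peak in the lost regions stood at percentile 19.9 of its list, and the highest at percentile 70.6. In knockdown libraries without EGF, 37 of the 77 had a peak in both and 23 in neither. Of the control libraries, the first had a peak in 30 and the second in 62. On lists of equal length 75 isolated regions (6.81%) were lost, where 3.12% of all regions were. With peaks under the lower quartile of score of each list dropped, 44 (4.70%) were lost, where 2.64% were. Without the first or the second EGF library the counts were 131 and 97, and without the first or the second library of knockdown with EGF 98 and 127, since fewer libraries then have to hold or lack a peak. In that order these were 10.4%, 7.68%, 7.76% and 10.1% of the isolated regions, against 5.09%, 4.29%, 4.04% and 5.43% of all regions.

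**Figure D4:**
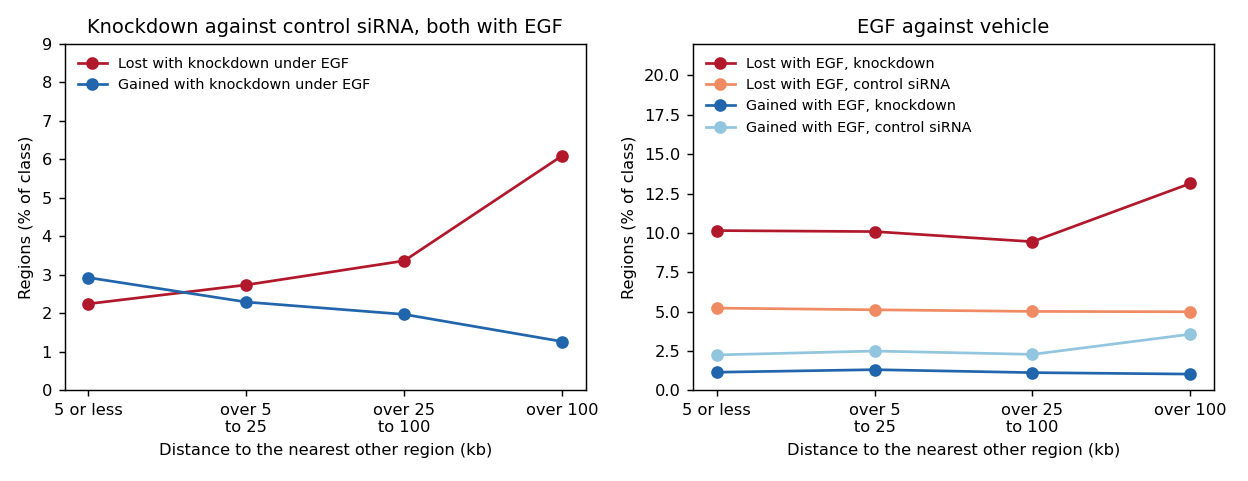
Percentage of regions with a peak in both libraries of one group and neither of the other, by distance to the nearest other region. Left, knockdown against the control siRNA, both with EGF, where losses reach 6.10% and gains drop to 1.27% over 100 kb. Right, EGF against vehicle, where losses under knockdown reach 13.1%. The shares are not split by width.

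By limma, 2 isolated regions were higher and 6 lower with knockdown under EGF, while 0.234% of all regions were higher and 0.426% lower. None of the 8 (0 of the 2 and 0 of the 6) had entered the test only through the higher group. Over all regions called higher and lower, 9.09% and 32.5% had. Calls in either direction made 0.633% of the isolated and 0.661% of all regions, and the shares with an unadjusted p under 0.05 were 10.9% and 10.8%. The median log2 difference was -0.02 at isolated regions and 0 over all regions. The 6 that fell were 1270 to 3753 bp wide, and 5 of them had a peak in all 6 libraries of the other groups and none in knockdown with EGF. The widest, on chromosome 14 from 39324292 to 39328044, lay 1345174 bp from the nearest region. Its covered length was 0 and 0 bp in knockdown with EGF against 1812 and 2502 bp in EGF libraries, and 3250 and 1653 bp in knockdown against 1464 and 3267 bp in control libraries. It fell by 3.54 ± 0.44 (SE, limma adjusted p = 0.0428) with knockdown under EGF, and its difference with knockdown without EGF was 0.07 ± 0.44 (SE, limma adjusted p = 0.985).

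The same pattern was seen on chromosome 18 from 29525494 to 29527868, 904654 bp from the next region. There the cover was 0 and 0 bp in knockdown with EGF against 1801 and 1469 bp in EGF, and 1867 and 1788 bp in knockdown against 1139 and 2275 bp in control libraries, a fall of 3.19 ± 0.31 (SE, limma adjusted p = 0.0346). On chromosome 15, from 49444597 to 49446945 and 651846 bp from the next region, it was 0 and 0 bp in knockdown with EGF against 1485 and 1683 bp in EGF, and 1405 and 1769 bp in knockdown against 1236 and 2195 bp in control libraries (-3.15 ± 0.29 SE, limma adjusted p = 0.0307). In these regions both libraries of knockdown with EGF stood apart from all the other 6. Where present, the peaks stood at percentile 12.9 to 45.1 on chromosome 14, 6.75 to 41.6 on chromosome 18 and 22.8 to 42.7 on chromosome 15. A group with 0 and 0 bp has no spread of its own, so these SE may understate the spread of peaks near the caller's limit.

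The others were less remote. On chromosome 10 from 27456625 to 27458170 the cover was 0 and 0 bp in knockdown with EGF against 1168 and 1041 bp in EGF, and 1400 and 1546 bp in knockdown against 1003 and 1315 bp in control libraries (-2.70 ± 0.24 SE, limma adjusted p = 0.0307). On chromosome 1 from 122362958 to 122364227 it was 0 and 0 bp in knockdown with EGF against 934 and 1034 bp in EGF, and 759 and 521 bp in knockdown against 1075 and 1270 bp in control libraries (-2.56 ± 0.29 SE, limma adjusted p = 0.0408). The sixth, on chromosome 12 from 50864679 to 50867796, kept 200 bp in the second library of knockdown with EGF and 0 bp in the first, against 2343 and 2171 bp in EGF libraries, and had 3118 and 1653 bp in knockdown against 2092 and 2514 bp in control libraries (-3.12 ± 0.40 SE, limma adjusted p = 0.0431). The limma interaction of these regions did not pass, with an adjusted p of 0.199 for the one on chromosome 1 and 0.153 for the other 5. Where present, the peaks stood at percentile 11.4 to 44.1 on chromosome 10, 19.4 to 54.4 on chromosome 1 and 11.9 to 45.9 on chromosome 12.

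The 2 isolated regions that were higher with knockdown under EGF lacked a peak in both EGF libraries. On the X chromosome, from 147247065 to 147248620, the cover was 884 and 910 bp in knockdown with EGF against 0 and 0 bp in EGF, and 1535 and 1153 bp in knockdown against 984 and 1449 bp in control libraries (2.46 ± 0.28 SE, limma adjusted p = 0.0408). On chromosome 9, from 88753308 to 88754142, it was 736 and 753 bp in knockdown with EGF against 0 and 0 bp in EGF, and 787 and 702 bp in knockdown against 601 and 817 bp in control libraries (2.24 ± 0.30 SE, limma adjusted p = 0.0468). The limma count for knockdown under EGF was 0 with a pseudocount of 1000 bp, without either EGF library and without the first library of knockdown with EGF (98 to 127 at an unadjusted p under 0.05). It fell without the second as well. Leaving out either control library raised the count, and the share over all regions rose with it. The median log2 difference then stayed at -0.02 at isolated and 0 over all regions.

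A peak missing in both libraries of one group and present in all 6 others was counted for each group, a count added after the data were seen. Knockdown with EGF lacked 19 isolated regions in this way (1.5%), where the share over all regions was 0.86%. They were 672 to 3753 bp wide and lay on 14 chromosomes, and the most remote, on chromosome 19 from 51428230 to 51430033 and named after its values were seen, was 1681931 bp from any other region. Knockdown lacked 3 (0.238%, against 0.0711% of all regions), EGF 8 (0.633%, against 0.817%) and control 8 (0.633%, against 0.32%). The 3 lacking in knockdown, 1 of them named after its values were seen, were on chromosome 1 from 99991765 to 99992553, on chromosome 10 from 86452634 to 86454197 and on chromosome 14 from 56676342 to 56677421. The first 2 rose with EGF under knockdown by 2.07 ± 0.33 and 2.78 ± 0.42 (SE). The third had 308 and 703 bp in knockdown with EGF against 0 and 0 bp in knockdown libraries. The way these 3 were picked fixed the direction of that difference, so no p-value is given.

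Regions with a peak in both libraries of one group and none elsewhere were scarce. Knockdown alone held 15 (1.19%, against 1.91% of all regions), EGF 8 (0.633%, against 0.533%), control 6 (0.475%, against 0.473%) and knockdown with EGF 1 (0.0792%, against 0.163%). That last region, named after its values were seen, lay on chromosome 13 from 78017621 to 78017899 and was 279 bp wide. It stood 169295 bp from a region, on the same chromosome from 77847654 to 77848325, that was among the 19 lacking in knockdown with EGF alone. Over both EGF states, 1 isolated region was gained with knockdown in all 4 libraries against none (0.0792%, against 0.313% of all regions) and 4 were lost (0.317%, against 0.156%).

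The most remote regions differed from each other in how many libraries held them. The median distance to the nearest region was 155776 bp, 113 regions were more than 500000 bp away and 26 more than 1000000 bp. The most isolated lay on the X chromosome from 110298630 to 110299439, 3989179 bp from one neighbour and 15984325 bp from the other, and still had a peak in all 8 libraries. It was covered over 650 and 448 bp in knockdown with EGF, 636 and 728 bp in knockdown, 771 and 781 bp in EGF, and 273 and 692 bp in control libraries, with overlapping groups. It stood at percentile 34.2 to 67.7 of the lists. The next placed on a chromosome, on chromosome 2 from 96943335 to 96944698, was 2665013 bp from the nearest region. It had no peak in the 4 EGF-treated libraries, against 1200 and 431 bp in knockdown and 0 and 855 bp in control libraries. On chromosome 3, from 148842435 to 148843627, the cover was 714 and 983 bp in knockdown with EGF against 339 and 0 bp in EGF, and 299 and 200 bp in knockdown against 0 and 0 bp in control libraries. On chromosome 12, from 63731732 to 63734336, it was 0 and 702 bp in knockdown with EGF against 1495 and 263 bp in EGF, and 2452 and 802 bp in knockdown against 0 and 2340 bp in control libraries. The 2 control values there lie 2340 bp apart, and no group stands clear of the others.

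Isolated regions often followed each other. Of the 1263, 660 lay in 262 stretches of 2 or more in a row with no other region between, and the longest stretches held 7. One spanned 2.52 Mb of chromosome 3 from 69402253 to 71917696, with 5 of 7 regions present in all 8 libraries. The other spanned 18.6 Mb of the X chromosome from 110298630 to 128862084 and had 1 of 7 present in all 8. On chromosome 5, a stretch of 6 regions over 1.80 Mb from 78367685 to 80164804 held none present in all 8 libraries. In that stretch 4 of the 6 regions had no peak in either library of knockdown with EGF, and 2 had none in either EGF library. One of the 4, from 79527690 to 79529578, had 0 and 0 bp in knockdown with EGF against 1720 and 1677 bp in knockdown libraries. It had 0 and 355 bp in EGF against 1399 and 1882 bp in control libraries. Its mean EGF difference was -2.85 ± 0.36 (SE), and it entered the test only through the vehicle libraries.

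The limit of 100000 bp cut through a continuous range of distances. Just inside it were neighbours on chromosome 6, from 77321465 to 77322731 and from 77422767 to 77426558, 100035 bp apart. The first had 634 and 1213 bp in knockdown libraries and no peak elsewhere. The second had 540 and 374 bp in knockdown with EGF against 3358 and 3492 bp in knockdown, and 0 and 765 bp in EGF against 1146 and 2573 bp in control libraries. Just outside it were a region on the X chromosome from 162607862 to 162609570, at 99924 bp and with a peak in all 8 libraries, and one on chromosome 4 from 83339770 to 83340535, at 99889 bp and with a peak in 3.

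The share of regions called for the mean EGF effect was higher for regions with a neighbour within 25 kb than for isolated regions. It was 15.6% at 5 kb or less, 12.3% over 5 and up to 25 kb, 9.63% over 25 and up to 100 kb and 10.3% over 100 kb. The median width went down in the same order, with 1923, 1614, 1464 and 1394 bp, and the part of width in this was not tested. The share with a peak in all 8 libraries was 59.0%, 59.4% and 60.1% in the nearer classes and 51.3% in the last. Duplicates shared fewer isolated regions than others as well. Of the isolated regions with a peak in either library of a same-group pair, a fraction of 0.812 was shared on average (range 0.730 to 0.844 over 4 pairs), against 0.853 for the other regions.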

How the data were processed

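Each library came with a deposited peak list of 9 columns and no header, called per sample. The submitters' processing notes name build mm9, MACS2 2.1.1.20160309.0, deepTools 3.0.2, Bowtie2 2.3.4.2 and SAMtools, with no stated role or order. The sources used here do not give the caller's settings or name an input library. In the deposited lists the score equals 10 times the −log10 q-value with decimals removed. The authors' fold enrichment, a ratio, and their −log10 p stand beside it for each peak. These values served only to rank and describe peaks within a list. Depth is unknown, so no counting interval is given.

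Peaks sharing at least 1 bp were merged. Covered length per region and library was compared with limma 3.58.1 (R 4.3.3, empirical Bayes with a trend) on log2(covered bp + 200), with 4 group means over all 8 libraries and all 28146 regions held by 2 or more. The Benjamini-Hochberg adjustment ran over these, with a threshold of 0.05. The pipeline was tested on simulated data. Python 3.11.15, pandas 2.3.3, NumPy 2.4.6 and matplotlib 3.10.9 did the rest.

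The regions, lists and comparisons were chosen with earlier results of these data known. Regions named are, by rule, those with the largest differences past the threshold (up to 6 per direction), the strongest, widest, narrowest and most isolated, the highest ranked among those gained or lost by presence, and those at the distance limit. Alternatives were another pseudocount, no filter, quantile normalization, lists of equal length, a stricter score, 50% cover of the region, wider merging, a limit of 200000 bp, leaving out each library, and the replicate number as a block. Leaving out unplaced sequence, and the alternatives for the losses by presence, were added after seeing the data.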

Additional observations from a re-analysis of the deposited data

How the results depend on the processing

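Counts of isolated regions past the limma threshold moved with several settings, and the cause was not tested. For EGF with the control siRNA (39) they were 23 with no filter, 73 on lists of equal length, 78 with 50% cover and 10 at the limit of 200000 bp. These were 1.82%, 6.62%, 6.78% and 2.33% of the isolated regions tested, against 2.08%, 6.14%, 7.54% and 3.95% of all regions. For EGF with knockdown (67) they were 28 after quantile normalization and 26 at 200000 bp. For the mean EGF effect (130) they were 84 with the stricter score and 44 at 200000 bp. In that order these were 2.22%, 6.05%, 8.97% and 10.2% of the isolated regions tested, against 3.2%, 6.62%, 12.9% and 13% of all regions. For knockdown without EGF (11) they were 1 with a pseudocount of 1000 bp, 0 with no filter or quantile normalization (102 at an unadjusted p under 0.05 in each), 24 on lists of equal length, 54 with 50% cover and 3 at 200000 bp. Where any passed, the shares were 0.0792%, 2.18%, 4.69% and 0.698%, against 0.430%, 2.55%, 5.76% and 1.37% of all regions. For knockdown under EGF (8) they were 0 with a pseudocount of 1000 bp (127 at an unadjusted p under 0.05), 20 on lists of equal length, 18 with the stricter score, 52 with 50% cover and 5 at 200000 bp. Where any passed, the shares were 1.81%, 1.92%, 4.52% and 1.16%, against 1.95%, 2.26%, 4.10% and 0.661% of all regions. The interaction (0) reached 18 with the stricter score and 84 with 50% cover (1.92% and 7.30%, against 2.51% and 8.08% of all regions). At 200000 bp, 430 regions qualified by construction, 214 with a peak in all 8 libraries and 24 lost by presence with knockdown under EGF. With 50% cover 364 had a peak in all 8, and the stricter score left 44 lost by presence. Leaving out 1 library gave 0 to 103, 0 to 170, 60 to 259, 0 to 107, 0 to 28 and 0 to 73 for the 6 comparisons in the order above, and 97 to 131 for the losses by presence. A lone library is then assumed to vary like the other groups. Where the count moved in these fits, the share over all regions moved in the same direction. The replicate block gave 0, 38, 104, 0, 0 and 0 calls in that order (181, 298, 365, 105, 144 and 110 at an unadjusted p under 0.05). The 38 and 104 were 3.01% and 8.23% of the isolated regions, against 4.18% and 10.5% of all regions. Replicate numbers did not pair the samples, as correlations of the deviations of like-numbered libraries were -0.01 to 0.03. Of 130 values under alternatives, 62 moved and 68 stayed within 1.5 times. Depth is unknown, and peaks near the caller's limit may be missed in a shallower library.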
